A study of Homo sapiens with 13 samples.

Results

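The granins and the enzymes that process prohormones were followed at the transcript level in 2 small cell lung cancer (SCLC) cell lines, H82 and H146, under the drug FHD-286. The set holds 10 genes of the 56831 rows listed for each line, matched by symbol. It was chosen with earlier results of these data known. The granins are *CHGA*, *CHGB*, *SCG2*, *SCG3*, *SCG5* and *VGF*, and the enzymes are *PCSK1*, *PCSK2*, *CPE* and *PAM*. RNA-seq gave 13 libraries in 4 groups, namely 3 of untreated H82, 3 of treated H82, 3 of untreated H146 and 4 of treated H146. Treated cells received 100 nM FHD-286, an allosteric inhibitor of the SMARCA2 and SMARCA4 ATPases, for 14 days, whereas the controls are labelled as untreated, with no vehicle named. Both lines are labelled as SCLC with a WT genotype and were grown in the same medium with serum and antibiotics. Each line is 1 cell line, and nothing in the labels says whether the replicates were separate cultures, so p-values measure only the spread between these libraries, which may be technical. Values are TPM (transcripts per 1000000), which are corrected for transcript length and sum to 1000000 in each library, so the sequencing depth behind them is unknown.

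Granins are acidic proteins that condense in the trans-Golgi network and help to form dense-core vesicles, from which neuroendocrine cells release hormones and peptides on demand. Inside these vesicles the convertases PCSK1 and PCSK2 cut prohormones after pairs of basic residues, CPE (carboxypeptidase E) trims those residues, and PAM adds the C-terminal amide that many peptides need for activity. Chromogranin A, the product of *CHGA*, is a standard marker of neuroendocrine tumors, SCLC included.

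The cyclic AMP response element (CRE), TGACGTCA, is a well-known element of several promoters in this family. It was searched in the RefSeq promoter windows (GRCh38.p14, from 250 bases before to 50 bases after the start), in which 8 of the 10 members, all but *CHGB* and *SCG2*, matched by symbol. The element reads the same on both strands. It was present in 3 of the 12 windows of these members, 1 each for *CHGA*, *VGF* and *PCSK1*, and in 649 of all 35116 windows (1.85%). The shorter TGACG, which lies inside the CRE and was searched on both strands, was found in 9 of the 12 windows of members and in 24.6% of all windows. A match describes the letters only, and binding was not measured in these data. The 60 bases around each full element are shown, 5′ to 3′ on the gene's strand with the CRE in capitals, because the calls of the 3 members that carry it were not in 1 direction: *CHGA* fell in H82, *VGF* rose and *PCSK1* fell in H146.
CHGA (chr14:92923070-92923129, plus strand): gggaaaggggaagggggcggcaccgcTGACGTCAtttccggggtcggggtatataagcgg
VGF (chr7:101165615-101165674, minus strand): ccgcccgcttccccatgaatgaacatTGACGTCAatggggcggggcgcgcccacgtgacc
PCSK1 (chr5:96433292-96433351, minus strand): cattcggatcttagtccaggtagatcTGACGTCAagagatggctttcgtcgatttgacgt
The first base of the element lay 54 bases before the start of its window's transcript in *CHGA*, 79 in *VGF* and 77 in *PCSK1*, where it was present in 1 of 2 windows and lies inside the gene as annotated from its outermost start.

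The labelled cell type was checked against neuroendocrine markers. *SYP*, a synaptic vesicle protein, had a mean of 202 TPM in untreated H82 and 85.5 TPM in untreated H146, and *NCAM1* had 52.9 and 51.0 TPM. *NEUROD1*, a neurogenic transcription factor, was at 229.7 TPM in untreated H82 and at 0.393 TPM in untreated H146. Of the 5 neuroendocrine markers, 2 were lower in treated H82 (*SYP* and *NEUROD1*) and 1 was higher (*INSM1*, which reached 296 TPM in treated replicate 2). Of the 4 tested in H146, 2 were lower (*INSM1* and *DLL3*). Among all genes tested, 45.5% were lower and 13.1% higher in H82, and 15.5% were lower and 32.4% higher in H146. The rise of *INSM1* in H82 was 2.19 (log2), and 1.15 without treated replicate 2. Under the median of ratios, *NCAM1* and *DLL3* were also higher in H82 (0.75 and 0.78), which made 3 of 5, and *SYP* was also lower in H146 (-0.57). Their summed level was 586 to 625 TPM in untreated and 251 to 673 TPM in treated H82, and 1341 to 1617 TPM in untreated and 925 to 1194 TPM in treated H146. *POU2F3*, which defines the tuft-like form of SCLC, did not exceed 0.0301 TPM in any library. The 5 tuft and non-neuroendocrine markers summed to 7.41 to 9.48 TPM in untreated and 46.5 to 51.4 TPM in treated H82. There *VIM* and *YAP1* rose. In H146 they summed to 15.8 to 19.1 TPM untreated and 45.4 to 88.5 TPM treated. There *ANXA1* and *VIM* rose and *CD44* fell. *YAP1* in H82 and *VIM* in H146 reached the 1 TPM needed for testing only in treated libraries (untreated at most 0.585 and 0.914 TPM). *YAP1* was not tested without treated replicate 2. Of the 5 markers of other cell types, *SFTPC* (alveolar epithelium) did not exceed 0.0689 TPM, *PECAM1* (endothelium) 0.525 TPM and *PTPRC* (leukocytes) 6.75 TPM. *COL1A1* (fibroblasts) reached 16.7 TPM in 1 treated H82 library. *ALB* (hepatocytes) was at no more than 0.0606 TPM in untreated H82 and between 310.1 and 515 TPM in treated H82. The summed level of these 5 was 0.656 to 1.21 TPM in untreated H82, 310.4 to 520.5 TPM in treated H82, 9.22 to 11.98 TPM in untreated H146 and 9.27 to 15.1 TPM in treated H146. Mitochondrial transcripts took 22.1% to 24.1% of the TPM in untreated and 12.3% to 14.9% in treated H82, and 7.56% to 8.86% in untreated and 3.82% to 11.4% in treated H146. The part of these markers and shares in the members' values was not tested.

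One library stood apart on genes of the other line. A group of 15 genes, none of them a member, was above 50 TPM in every H146 library and at or under 0.1 TPM in every untreated H82 library; this group was chosen after the values were seen. Its summed level was 0.182 to 0.336 TPM in untreated H82, 32.9 TPM in treated H82 replicate 1, 13.1 TPM in replicate 3, and 226 TPM in replicate 2, against 3694 to 4390 TPM in H146. In treated replicate 2 this came to 5.66% of the mean over H146, compared with 0.823% in replicate 1 and 0.328% in replicate 3. Several members were also high there. *PCSK1* was 19.0 times and *SCG2* 8.27 times the next highest treated H82 library, *PCSK2* 7.46 times, *CHGB* 4.37 times, *CHGA* 2.97 times and *VGF* 2.71 times. The excess of replicate 2 over the mean of the other 2 treated libraries was set against the mean over all H146 libraries, treated and untreated. It was 1.60% for *CPE*, 7.89% for *SCG2*, 12.6% for *PCSK1*, 13.3% for *SCG5*, 15.7% for *VGF*, 21.7% for *CHGB*, 24.7% for *PAM*, 37.65% for *SCG3*, 39.8% for *CHGA* and 82.6% for *PCSK2*. For members that H82 itself expresses, the excess can also hold transcripts of H82, so these values cannot tell where the transcripts came from. The source of these transcripts was not tested, and the H82 results of the members are given with and without this library. Replicates 1 and 3 also held more of the 15 genes than untreated H82, so leaving out replicate 2 does not remove all such transcripts. Across all genes, treated H82 replicate 1 deviated from the group mean against replicate 2 (correlation of -0.73) and replicate 3 (-0.64). Replicates 2 and 3 had a correlation of -0.05. In treated H146, replicates 1 and 2 deviated in the opposite direction to replicates 3 and 4 (correlations across genes of -0.51 to -0.77). Deviations from the mean of the same few libraries cancel out, so negative correlations arise in part by construction, also between unrelated replicates. Their size was not tested. The labels give no batch for these libraries. In bulk libraries, fewer cells that express a gene and less of its RNA per cell cannot be told apart.

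**Figure D1:**
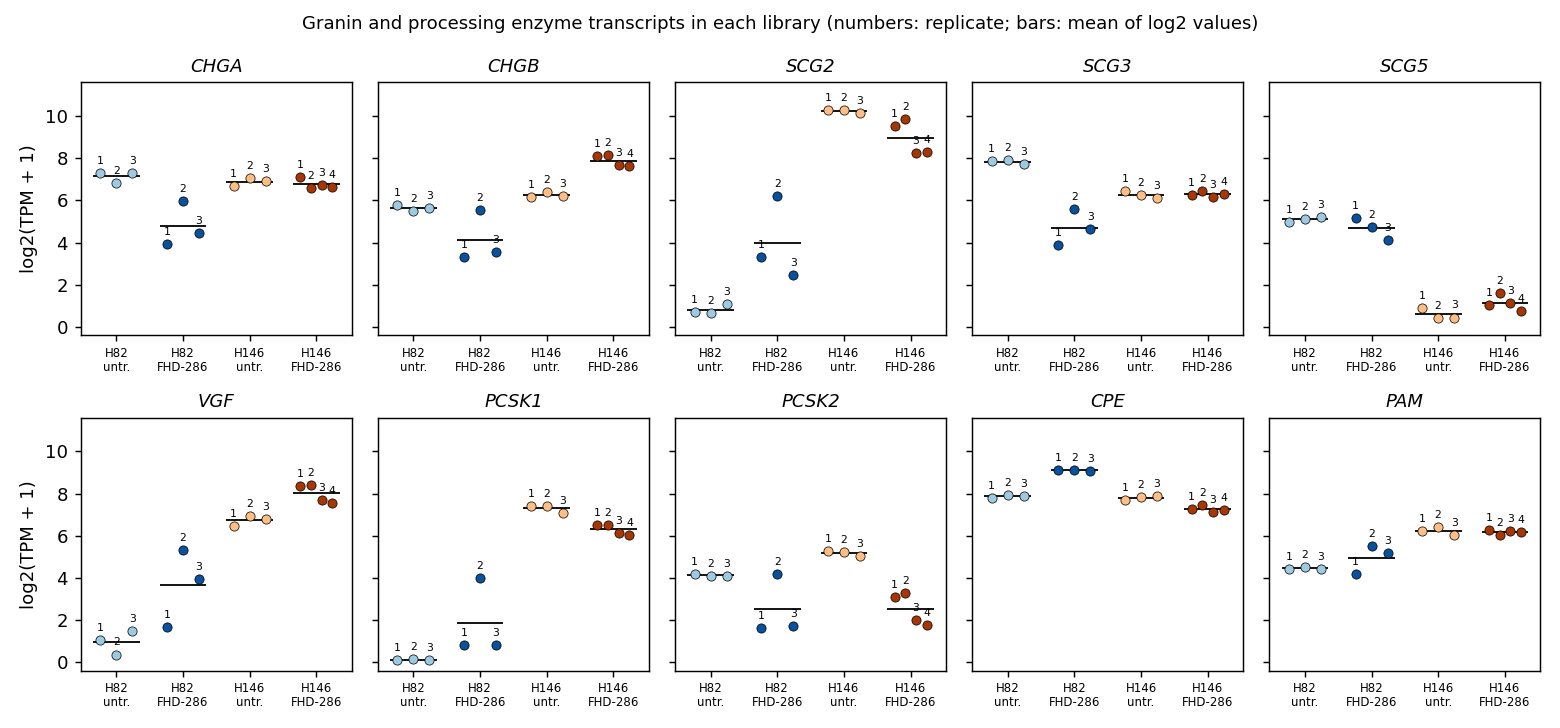
Level of each member in every library as log2(TPM + 1), with 1 panel a gene and 1 point a library (numbers give the replicate), for untreated and FHD-286-treated (100 nM, 14 days) H82 in blue and H146 in orange. Bars are group means of the log2 values. In treated H82, replicate 2 is the highest of its group for 8 of the 10 genes, while *CPE* is nearly the same in its 3 libraries.

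The 2 lines started from different granin profiles. In untreated H82 the order of mean levels ran from *CPE* (233 ± 9.27 TPM, SD, n = 3) and *SCG3* (225 ± 15.0), whose ranges overlapped, through *CHGA* (143 ± 25.4), *CHGB* (48.9 ± 4.66), *SCG5* (33.2 ± 2.66), *PAM* (21.0 ± 0.696) and *PCSK2* (16.4 ± 0.758). *VGF* (1.06 ± 0.765 TPM) and *SCG2* (0.779 ± 0.305 TPM) followed with overlapping ranges, and *PCSK1* was last at 0.0824 ± 0.0135 TPM. In untreated H146 *SCG2* was far ahead at 1209 ± 70.4 TPM (SD, n = 3), followed by *CPE* (223 ± 13.6) and *PCSK1* (158 ± 19.3). *CHGA* (118 ± 17.2 TPM) overlapped with *VGF* (106 ± 17.7 TPM), and *SCG3* (76.6 ± 8.58), *CHGB* (75.4 ± 7.64) and *PAM* (73.5 ± 9.73) could not be put in order, since neighbours overlapped. *PCSK2* (35.2 ± 3.15 TPM) and *SCG5* (0.529 ± 0.303 TPM) came last. The 2 lines come from separate tables, so levels between lines were set side by side and not tested.

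The make-up of the granin transcripts is given as a description, with no test. In untreated H82, *SCG3* gave 46.0% to 55.3% and *CHGA* 26.5% to 34.6% of the summed TPM of the 6 granins. In treated H82 the *SCG3* share was 16.4%, 16.2% and 26.5% in replicates 1 to 3, and *SCG5* took 42.4%, 8.80% and 18.1%. The summed granin level itself was 429 to 473 TPM in untreated H82 and 82.9, 295 and 91.4 TPM in treated replicates 1, 2 and 3. In untreated H146, *SCG2* gave 75.0% to 78.4% of the sum. After treatment it gave 47.4%, 53.4%, 34.1% and 35.6%, with no overlap between the groups. *CHGB* gave 4.41% to 5.04% of the sum in untreated and 16.4% to 22.6% in treated libraries, and *VGF* gave 5.46% to 7.31% and 19.7% to 23.4%. The summed level was 1497 to 1669 TPM in untreated H146 and 1546, 1733, 886 and 868 TPM in treated replicates 1 to 4, so it overlapped between groups.

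**Figure D2:**
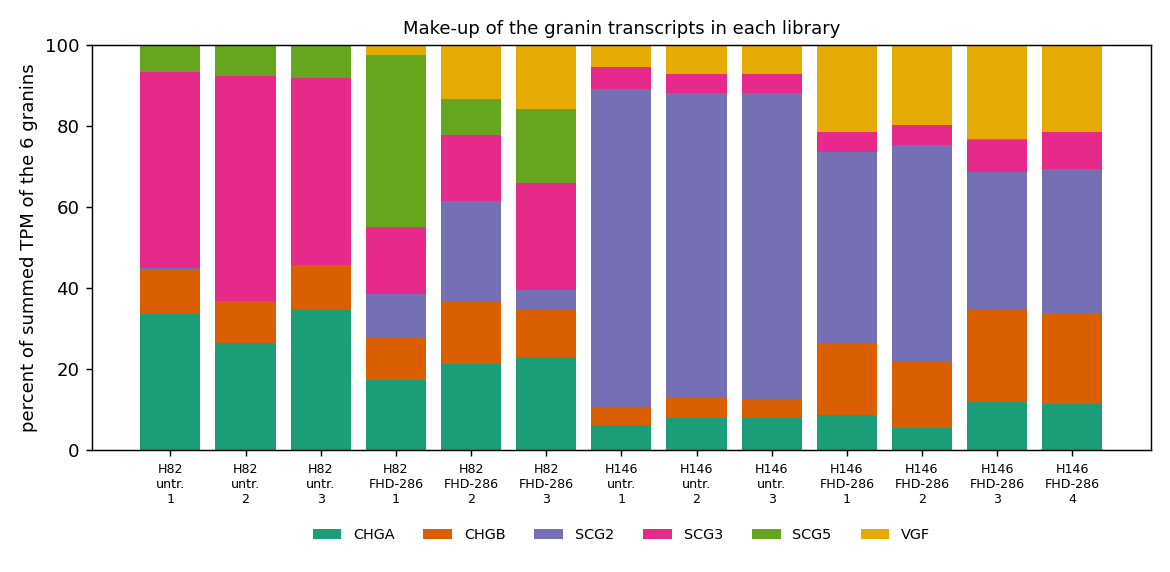
Share of each of the 6 granins in their summed TPM (percent, y axis) in each of the 13 libraries (x axis, line, group and replicate), stacked to 100. *SCG3* and *CHGA* lead in untreated H82, *SCG2* leads in untreated H146 with 75.0% to 78.4%, and the *CHGB* and *VGF* shares are larger in each treated H146 library than in any untreated one.

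Treatment was then compared with no treatment within each line by limma on log2(TPM + 1), with a threshold of 0.05 on p-values adjusted over all genes tested. In H82, 9 of the 10 members passed the filter of 1 TPM in at least 3 libraries, of which 2 were lower (*CHGA*, *SCG3*), 3 were higher (*SCG2*, *VGF*, *CPE*) and 4 did not pass the test. Of all 19766 genes tested in H82, 45.5% were lower and 13.1% were higher. Without treated replicate 2, 4 members were lower and 2 higher, beside 42.6% lower and 9.03% higher among the 19233 genes then tested. In H146 all 10 members passed the filter, with 4 lower (*SCG2*, *PCSK1*, *PCSK2*, *CPE*), 2 higher (*CHGB*, *VGF*) and 4 that did not pass the test, beside 15.5% lower and 32.4% higher among 19581 genes. The median change of all genes was -0.56 (log2) in H82 and 0.25 in H146. Scaling by the median of ratios brought it to -0.14 and -0.02, so the value under that scaling is given for the genes named whose call it changed. Treated and untreated libraries did not overlap for 5 of 9 members in H82 and 6 of 10 in H146, beside 67.8% and 52.9% of all genes tested.

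**Figure D3:**
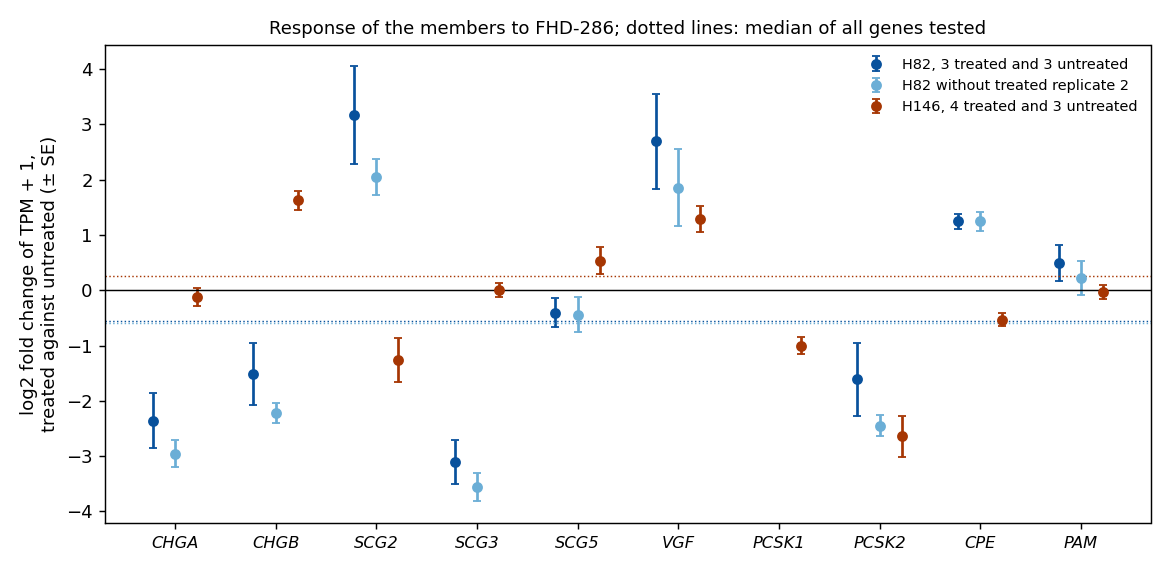
Change of each member with FHD-286 as log2 fold change of TPM + 1 (y axis, point and SE) in H82 with all 6 libraries, in H82 without treated replicate 2, and in H146; dotted lines give the median of all genes tested in each fit. *SCG2* and *CPE* passed the test in opposite directions in the 2 lines, and *PCSK1* has no H82 point because it was under the filter there.

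*CHGA* (chr14:92923150-92935285) fell in H82 and did not pass the test in H146. Its level was 159, 114 and 157 TPM in untreated H82 and 14.3, 62.5 and 21.1 TPM in treated replicates 1 to 3. All treated libraries were below all untreated ones, with the nearest to the controls being replicate 2. This was a log2 fold change of -2.36 (SE 0.49, adjusted p = 0.00574), and -2.95 (SE 0.25, adjusted p = 0.000789) without that library. In H146 *CHGA* was at 100.2, 135 and 119 TPM untreated and 135, 95.1, 105 and 99.4 TPM treated, so the groups overlapped, with a log2 fold change of -0.12 (SE 0.16, adjusted p = 0.559).

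*CHGB* (chr20:5911510-5925353), chromogranin B, a major soluble protein of the vesicle core, rose in H146. There it went from 70.1, 84.2 and 71.9 TPM to 271, 284, 201 and 194 TPM, and none of the treated libraries overlapped with the untreated ones. Its log2 fold change was 1.63 (SE 0.17, adjusted p = 0.000187). In H82 it was at 53.3, 44.03 and 49.2 TPM untreated and 8.83, 46.1 and 10.5 TPM treated. Replicate 2 lay inside the untreated range and the other 2 treated libraries lay below it. With all libraries the log2 fold change was -1.51 (SE 0.56, adjusted p = 0.0523), which missed the threshold, and without replicate 2 it was -2.22 (SE 0.18, adjusted p = 0.000782).

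*SCG2* (chr2:223596940-223602361), the secretogranin from which secretoneurin is cut, moved in opposite directions in the 2 lines. In H82 it was at 0.635, 0.572 and 1.13 TPM untreated, close to the filter, and at 8.83, 73.0 and 4.41 TPM treated. Each treated library was above each untreated one, with replicate 2 far above the others. The rise was 3.16 on the log2 scale (SE 0.89, adjusted p = 0.0188), and 2.05 (SE 0.33, adjusted p = 0.00424) without replicate 2. Treated replicates 1 and 3 also held the 15 genes of H146 described above, at 0.823% and 0.328% of their H146 mean. *SCG2* itself averaged 842 TPM over the H146 libraries, and the part of such transcripts in its H82 rise was not tested. *SCG2* passed the filter in H82 mainly through the treated libraries, and its adjusted p was 0.0549 without untreated replicate 1 and 0.0699 without untreated replicate 2. In H146 it fell from 1246, 1253 and 1127 TPM to 733, 925, 302 and 309 TPM. The groups did not overlap, and treated replicates 3 and 4 were below replicates 1 and 2. Its log2 fold change there was -1.27 (SE 0.39, adjusted p = 0.0280). This call was lost when any untreated library or treated replicate 3 or 4 was left out (adjusted p between 0.0536 and 0.0785), and with quantile normalization (adjusted p = 0.0632).

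*SCG3* (chr15:51681492-51721026), which tethers chromogranin A to vesicle membranes rich in cholesterol, had the largest fall of the members in H82. It was at 229, 237.5 and 208 TPM untreated and 13.6, 47.8 and 24.2 TPM treated, with no overlap. As a log2 fold change this was -3.11 (SE 0.40, adjusted p = 0.000809), and -3.56 (SE 0.26, adjusted p = 0.000687) without replicate 2. In H146 *SCG3* was at 85.6, 75.8 and 68.5 TPM untreated and 74.6, 84.9, 69.7 and 78.1 TPM treated. The groups overlapped fully, with a log2 fold change of 0.01 (SE 0.12, adjusted p = 0.969), whose sign was negative under the median of ratios (-0.31) and quantile normalization (-0.09).

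*SCG5* (chr15:32641676-32697098) encodes 7B2, the chaperone that PCSK2 needs to become active. It was at 30.6, 33.2 and 35.9 TPM in untreated H82 and 35.1, 25.97 and 16.6 TPM in treated H82, overlapping between groups. Its log2 fold change of -0.41 (SE 0.26, adjusted p = 0.225) did not pass the test and was 0.07 under the median of ratios, while without treated replicate 1 it was -0.65 (adjusted p = 0.0234) and without replicate 2 it was -0.44 (adjusted p = 0.287). In H146 *SCG5* was at 0.879, 0.349 and 0.358 TPM untreated and 1.05, 2.04, 1.17 and 0.684 TPM treated. It passed the filter there only through treated libraries, and its log2 fold change of 0.53 (SE 0.25, adjusted p = 0.104) did not pass the test. A readthrough transcript on the same strand, *ARHGAP11A-SCG5*, and the antisense *SCG5-AS1* overlap this gene, and reads shared with them cannot be told apart where the counting did not use strand, which is not given in the sources used here. *SCG3*, *PCSK1* and *PCSK2* are also overlapped by antisense noncoding genes.

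*VGF* (chr7:101162509-101165569), a precursor of several secreted peptides that is induced by growth factors, passed the test as higher in both lines, in H82 not in every fit. In H146 it went from 86.7, 122 and 109 TPM to 332, 342, 207 and 187 TPM without overlap. Its log2 fold change was 1.29 (SE 0.24, adjusted p = 0.00328). In H82 it was at 1.06, 0.288 and 1.82 TPM untreated and 2.21, 39.6 and 14.6 TPM treated, so all treated libraries were higher, by little in replicate 1. The log2 fold change of 2.69 (SE 0.86, adjusted p = 0.0311) came to 1.85 (SE 0.69, adjusted p = 0.0652) without replicate 2. The H82 call was also lost without any 1 untreated library or without treated replicate 3, with adjusted p between 0.0532 and 0.113. Only 2 untreated H82 libraries reached 1 TPM, so *VGF* passed the filter there with the help of treated ones. It averaged 198 TPM over the H146 libraries, and the part of H146 transcripts in its H82 rise was not tested.

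Of the convertases, *PCSK1* (chr5:96390333-96434143), which makes the early cuts in prohormones, fell in H146. It was at 169, 170.4 and 136 TPM untreated and 91.3, 89.95, 69.8 and 65.5 TPM treated, with no overlap. That was a log2 fold change of -1.0 (SE 0.16, adjusted p = 0.00147). In H82 *PCSK1* was at 0.0723, 0.0977 and 0.0771 TPM untreated, where its transcripts were barely measured, and at 0.788, 15.0 and 0.745 TPM treated. Only treated replicate 2 reached 1 TPM, so the gene was under the filter. The 2 other treated libraries were at no more than 0.788 TPM, so no fit without replicate 2 was made. All treated values exceeded all untreated ones, replicate 2 by far the most. The difference in means was 1.77 on the log2(TPM + 1) scale. A two-sided exact permutation test gave p = 0.1, which is the smallest p that 3 against 3 libraries allow. *PCSK1* averaged 113 TPM over the H146 libraries, and the part of H146 transcripts in its treated H82 values was not tested.

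*PCSK2* (chr20:17226107-17484578), which cuts later and needs 7B2, had the largest fall of the members in H146. It went from 37.8, 36.1 and 31.7 TPM to 7.51, 8.71, 2.99 and 2.39 TPM, with no overlap and with treated replicates 3 and 4 lowest. In log2 terms the fold change was -2.64 (SE 0.37, adjusted p = 0.000807). In H82 it was at 17.3, 15.8 and 16.2 TPM untreated and 2.06, 17.2 and 2.31 TPM treated. Replicate 2 was at the untreated level and the other 2 treated libraries were far below it. With all libraries the log2 fold change was -1.61 (SE 0.65, adjusted p = 0.0692), and without replicate 2 it was -2.45 (SE 0.19, adjusted p = 0.000746). In H146 the ratio of *PCSK1* to *PCSK2* TPM was 4.47, 4.72 and 4.30 untreated and 12.15, 10.3, 23.4 and 27.4 treated. In untreated H82 *PCSK2* instead exceeded *PCSK1* by 162 to 239 times, with *PCSK1* at no more than 0.0977 TPM, so the size of this ratio is uncertain. In treated H82 it was 2.61, 1.15 and 3.10 times *PCSK1* in replicates 1, 2 and 3.

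*CPE* (chr4:165361194-165498547) had the smallest SE of the members in both lines. In H82 it went from 223, 242 and 234 TPM to 564, 557 and 545 TPM, with treated replicate 2 between the other 2. The log2 fold change was 1.25 (SE 0.14, adjusted p = 0.000442), and 1.25 (SE 0.17, adjusted p = 0.00264) without replicate 2. In H146 it fell from 207, 228 and 233 TPM to 155, 176, 139.9 and 147 TPM. All treated H146 libraries were below the untreated ones, with a log2 fold change of -0.53 (SE 0.12, adjusted p = 0.00657). Both directions held under the median of ratios (1.74 in H82, -0.85 in H146) and quantile normalization (0.85 and -0.53).

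*PAM* (chr5:102753981-103029730) did not pass the test in either line. It was at 20.4, 21.8 and 20.7 TPM in untreated H82 and 17.0, 44.1 and 35.6 TPM in treated H82, where replicate 1 was below the untreated range and the others above it. The log2 fold change was 0.49 (SE 0.33, adjusted p = 0.235). Relative to the falling median of all genes in H82 it was 1.05, and under the median of ratios it passed the test as higher (0.97, adjusted p = 0.0321). It also passed as higher with quantile normalization (0.83), with library weights (0.86) and without treated replicate 1 (0.89, adjusted p = 0.00112), whereas without treated replicate 2 it was 0.22 (adjusted p = 0.578). In H146 *PAM* was at 74.0, 83.0 and 63.5 TPM untreated and 75.5, 65.0, 73.0 and 71.9 TPM treated, with a log2 fold change of -0.04 (SE 0.12, adjusted p = 0.825). Under the median of ratios it passed there as lower (-0.35, adjusted p = 0.0252).

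The response of each member in H146 was set against its response in H82 in 1 fit over the 13 libraries, as the log2 fold change in H146 minus that in H82. The difference passed the test for 7 of the 10 members. It was positive for *CHGB* (3.13, SE 0.60, adjusted p = 0.000730), *SCG3* (3.11, SE 0.42, adjusted p = 6.33e-05), *CHGA* (2.24, SE 0.53, adjusted p = 0.00314) and *SCG5* (0.94, SE 0.38, adjusted p = 0.0468). Of all 23672 genes in this fit, 46.5% had a positive and 13.7% a negative difference past the threshold, and the median difference was 0.73, so the share of members with a positive difference was near that of all genes. The *SCG5* difference lost its call under the median of ratios (0.33, adjusted p = 0.497), with quantile normalization, with no filter and without treated H82 replicate 2 (adjusted p = 0.0644). The difference was negative for *SCG2* (-4.43, SE 1.02, adjusted p = 0.00246), *PCSK1* (-2.77, SE 0.85, adjusted p = 0.0139) and *CPE* (-1.78, SE 0.16, adjusted p = 3.11e-06). *PCSK1* entered this fit through H146 alone, so its difference rests in part on H82 values under the filter. Without treated H82 replicate 2 the differences of *SCG2*, *PCSK1* and *CPE* were -3.31, -1.71 and -1.78, each still past the threshold. Treated H82 replicates 1 and 3, which remain in that fit, also held some transcripts of the 15 genes of H146. *CHGB* and *SCG3* differed by 3.85 and 3.56 without that library. *VGF* (-1.41, SE 0.92, adjusted p = 0.205), *PCSK2* (-1.03, SE 0.80, adjusted p = 0.282) and *PAM* (-0.53, SE 0.35, adjusted p = 0.211) did not pass, although *PAM* did under the median of ratios (-1.32, adjusted p = 0.00410).

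Other genes of the regulated secretory pathway were read from the same fits, and those named in H82 kept their direction and their call without treated replicate 2. Of 15 other processing enzymes and inhibitors, 10 passed the filter in H82, with 3 lower and 2 higher, beside 45.5% and 13.1% of all genes, and a median log2 fold change of -0.25 beside -0.56 for all genes. Without treated replicate 2, 4 were lower and 2 higher, and under the median of ratios 1 was lower against 2 higher. *PCSK1N*, which encodes proSAAS, a granin-like inhibitor of PCSK1, rose from 0.985, 0.381 and 1.95 TPM to 62.1, 81.5 and 24.3 TPM in H82. Its log2 fold change was 4.66 (SE 0.48, adjusted p = 0.000381), and 4.32 without treated replicate 2. It passed the filter in H82 mainly through the treated libraries. *FURIN*, the convertase of the constitutive pathway, also rose in H82 (0.96, SE 0.25, adjusted p = 0.0133, and 0.84 without treated replicate 2), while *PCSK7*, another such convertase, fell (-1.30, SE 0.21, adjusted p = 0.00191), as did *CPD*, a carboxypeptidase of the trans-Golgi network (-0.84, SE 0.20, adjusted p = 0.0109). The *CPD* call was lost under the median of ratios (-0.35, adjusted p = 0.129). In H146, where 11 passed the filter, 1 was lower and 2 were higher, beside 15.5% and 32.4% of all genes, with a median of 0.26 beside 0.25. The median of ratios turned this to 2 lower and 1 higher. *PCSK1N* was at 147.6 to 180.4 TPM untreated and 164 to 180.1 TPM treated there and did not pass the test (0.06, SE 0.11, adjusted p = 0.699). *QPCT*, which forms the N-terminal pyroglutamate of some peptides, fell (-0.54, SE 0.11, adjusted p = 0.00414). *MBTPS1* (0.71, SE 0.15, adjusted p = 0.00548) and *PCSK4* (0.63, SE 0.22, adjusted p = 0.0440) rose, the latter not under the median of ratios (0.33, adjusted p = 0.299).

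Genes of the dense-core vesicle machinery had medians below that of all genes in both lines. Of the 17 on the list, 16 were in the tables. In H82 10 passed the filter, with 5 lower and 1 higher, a share near the 45.5% and 13.1% of all genes, and a median of -1.36 beside -0.56 for all genes, and 6 were lower and 1 higher without treated replicate 2. *CADPS*, which primes dense-core vesicles for release, fell from a mean of 46.8 ± 1.27 to 9.78 ± 3.68 TPM (SD, n = 3 each) in H82, a log2 fold change of -2.22 (SE 0.28, adjusted p = 0.000747). *PTPRN* (IA-2), a membrane protein of these vesicles, fell as well (-1.83, SE 0.34, adjusted p = 0.00358), and the related *CADPS2* rose (1.05, SE 0.24, adjusted p = 0.00851). In H146 15 passed the filter, with 8 lower and 1 higher, beside 15.5% and 32.4% of all genes, and a median of -0.88 beside 0.25; the median of ratios gave 11 lower and 1 higher. The vesicular monoamine transporters had the largest falls there. *SLC18A1*, which is counted among the 8 lower, passed the filter only through the untreated libraries, where it was high. *SLC18A1* went from 15.5, 14.2 and 12.7 TPM to 0.899, 0.681, 0.411 and 0.333 TPM (log2 fold change -3.27, SE 0.19, adjusted p = 1.09e-05). *SLC18A2* went from 28.6, 28.8 and 20.0 TPM to 2.73, 2.47, 1.19 and 1.57 TPM (-3.18, SE 0.24, adjusted p = 3.97e-05). *SYT4*, a vesicle synaptotagmin, rose in H146 (1.19, SE 0.14, adjusted p = 0.000358).

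The peptide prohormones, which are the cargo of these enzymes, included genes that rose and genes that fell in each line. Of 31 listed, 11 passed the filter in H82 and 16 in H146, some of them only through the group where they were high, so these counts describe the expressed ones alone. In H82 4 were lower and 2 higher, beside 45.5% and 13.1% of all genes, with a median of 0.69 beside -0.56 for all genes. Without treated replicate 2 only 9 of the 11 passed the filter, and their median was 0.07 beside -0.59. These medians cover different genes, so they do not show how leaving out that library moved the list. *OXT* (-2.56, SE 0.27, adjusted p = 0.000407) and *CORT* (-2.42, SE 0.27, adjusted p = 0.000480) fell most, and *NMB*, the precursor of neuromedin B, rose from 10.8 ± 1.61 to 54.0 ± 15.3 TPM (SD, n = 3 each; 2.19, SE 0.25, adjusted p = 0.000496). *NMU* rose too (1.67, SE 0.58, adjusted p = 0.0426), by 0.94 (adjusted p = 0.0192) without treated replicate 2. In H146 4 were lower and 7 higher, beside 15.5% and 32.4% of all genes, with a median of -0.21 beside 0.25 for all genes, and scaling by the median of ratios made 7 lower against 3 higher. *GRP*, the precursor of gastrin-releasing peptide, a known product of SCLC cells, fell from 69.0, 67.9 and 73.5 TPM to 0.258, 1.13, 0.378 and 0.588 TPM (-5.51, SE 0.20, adjusted p = 1.83e-06). *NPY* fell as well (-2.74, SE 0.20, adjusted p = 3.08e-05). *CARTPT* (2.62, SE 0.49, adjusted p = 0.00305) and *VIP* (2.59, SE 0.31, adjusted p = 0.000406) rose, *VIP* from no more than 0.165 TPM to between 3.43 and 8.60 TPM.

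**Figure D4:**
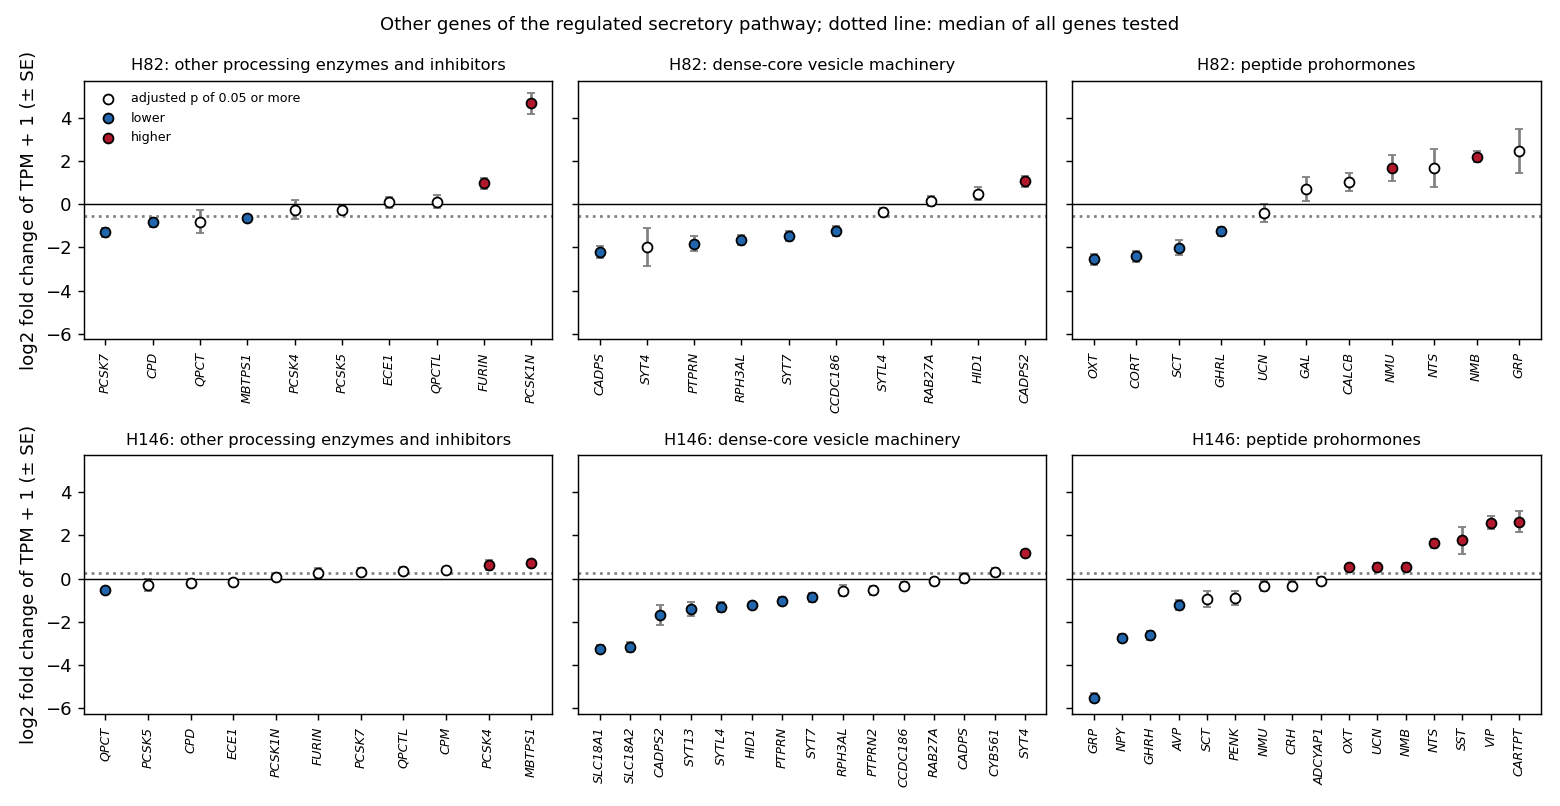
Log2 fold change of TPM + 1 with treatment (y axis, point and SE) for the genes that passed the filter in H82 (upper row) and H146 (lower row) from 3 lists of the secretory pathway, ordered by value along the x axis; blue and red points passed the test as lower and higher. The dotted line is the median of all genes tested, -0.56 in H82 and 0.25 in H146; 5 of 10 vesicle machinery genes in H82 and 8 of 15 in H146 are lower, beside 45.5% and 15.5% of all genes.

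As a description, the levels of the 15674 genes tested in both lines were ranked by Pearson's r of log2(TPM + 1) with *CHGA* over the 13 libraries, which share 2 lines and a treatment and are not independent points. Among the 5 most alike were *RF00072* (r = 0.939), *PHF19* (0.937), *RIMKLA* (0.932) and *FRMD5* (0.932). *PHF19*, for example, had 38.7 ± 1.90 TPM without and 10.6 ± 4.91 TPM with treatment in H82 (SD, n = 3 each), and 35.9 ± 2.53 TPM (n = 3) without and 23.3 ± 1.30 TPM (n = 4) with treatment in H146. Among the members, *SCG3* was the most alike (r = 0.869, rank 71), followed by *CHGB* (0.722), whereas *CPE* had r = -0.780.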

How the data were processed

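The authors used STAR to map reads to hg38 and to count them by gene (GENCODE 28; the submitters' processing notes also name Trim Galore 0.4.4), and deposited 1 table of TPM per line. Gene positions are from GENCODE 44 (hg38). Rows that share a symbol (4) were removed. TPM keep no counts, so the DESeq2 test named by the submitters was not run; limma 3.58.1 (R 4.3.3) was fitted to log2(TPM + 1) with an eBayes trend, two-sided, for genes that reached 1 TPM in 3 or more libraries of that line (for the difference between lines, of either line). Adjusted p-values follow Benjamini and Hochberg over every gene tested, with 0.05 as the threshold. The members, marker lists and pathway lists were chosen with earlier results of these data known. All members are named, as are the 2 largest rises and falls past the threshold in each pathway list and line, the 5 genes most like *CHGA* (1 of them is not reported here) and the markers. Fits were checked on simulated data. Alternatives were a pseudocount of 0.1, no filter, a mean TPM above 2, the median of ratios, quantile normalization, a replicate block, no trend, library weights and each library left out.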

Additional observations from a re-analysis of the deposited data

Results flagged for a closer look

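The response of 7 members differed between the lines by a test of the difference itself, the log2 fold change in H146 minus that in H82 in 1 limma fit. The differences were 2.24 for *CHGA*, 3.13 for *CHGB*, 3.11 for *SCG3* and 0.94 for *SCG5*, beside a median of 0.73 over all genes, and -4.43 for *SCG2*, -2.77 for *PCSK1* and -1.78 for *CPE*. The *SCG5* call was lost under the median of ratios (0.33), quantile normalization (0.39), no filter and the replicate block, and without any of 10 of the 13 libraries. The level of *PCSK1* in H82 rests on treated replicate 2, the only H82 library in which it reached 1 TPM. No member had a sample far from the others among the 4 treated H146 libraries by Dixon's test, although replicates 1 and 2 deviated from the group mean against replicates 3 and 4 (correlations across genes of -0.51 to -0.77, against 0.13 and 0.50 within these pairs). Such deviations cancel out within a group, so negative correlations arise in part by construction.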

How the results depend on the processing

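Of the counts of members, those in H146 stayed within 1.5 times under every alternative. In H82 the 2 lower members became 4 with the replicate block and 4 without treated replicate 2, so leaving out 1 library gave 2 to 4 lower and 1 to 4 higher. For the difference between lines, the 3 negative members became 6 with library weights, and leaving out 1 library gave 3 to 5. Same-numbered treated and untreated libraries did not deviate together (correlations of -0.04 to 0.03 in H82 and -0.11 to 0.01 in H146). This cannot show whether the samples were handled as pairs, and the labels name no pairing. The replicate block brought *CHGB* (-1.51, adjusted p = 0.0375) and *PCSK2* (-1.61, adjusted p = 0.0421) in H82 past the threshold and dropped treated replicate 4 in H146. Changes of sign occurred for members that did not pass the test: *SCG5* in H82 under the median of ratios (0.07), *PAM* in H146 without untreated replicate 2 (0.05) or treated replicate 2 (0.0067), and *SCG3* in H146 under the median of ratios (-0.31), quantile normalization (-0.09), the replicate block (-0.0026), library weights (-0.13) and without untreated replicate 3 (-0.07), treated replicate 2 (-0.04) or treated replicate 4 (-0.0026). Leaving out 1 library gave -0.07 to 0.09 for *SCG3* and -0.14 to 0.05 for *PAM* in H146. The cause was not tested. *VGF* in H82 (adjusted p = 0.0639) and *SCG2* in H146 (adjusted p = 0.0714) also lost their calls with no filter. Among all genes the median of ratios moved H82 from 8995 lower and 2587 higher to 6498 and 4792, and H146 from 3033 lower and 6354 higher to 4917 and 4166. TPM give no depth, so the precision of low values such as *PCSK1* in H82 is unknown.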
